A study of Mus musculus with 24 samples.

Results

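The genes described here are the collagen chains, the genes that encode the polypeptides from which collagen molecules are built. They are the rows of the deposited gene count table whose mouse symbol is exactly Col, a number, the letter a and a number, which held for 40 of 18669 genes. By type, 11 of them encode fibrillar chains, 8 encode chains of basement membranes (types IV, XV and XVIII) and 21 encode other chains, among them the beaded filaments of type VI, the fibril-associated types and the transmembrane types. Col6a3, Col6a5, Col20a1 and Col22a1 were not analysed here.

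Collagen chains wind into triple helices in the endoplasmic reticulum, where prolyl and lysyl hydroxylases modify them and the chaperone HSP47, the product of Serpinh1, holds the helix until it leaves. In skeletal muscle the fibrillar collagens I and III make up most of the connective tissue sheaths and are produced mainly by fibroblasts, whereas type IV networks line each muscle fibre and capillary and type VI filaments join the fibre surface to the matrix around it. HSP47 is itself a heat shock protein, so a heat shock response and collagen folding share a gene.

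RNA was sequenced from quadriceps femoris muscle of 24 mice on a CBA x C57BL/6 F1 background, with 2 mice in each of 12 groups. The genotypes were wild type, R6/2, a Huntington's disease model that carries a transgene of the first exon of human huntingtin with an expanded CAG repeat under the human promoter, and Hsf1-/-, which lacks both functional copies of heat shock factor 1. Mice received heat shock (HS) at 41.5 °C for 15 min, its control at 36.9 °C for 21 min, both under isoflurane, or the HSP90 inhibitor HSP990 at 12 mg/kg by gavage, or its saline vehicle, and all muscles were taken 4 h later. Wild type and R6/2 mice were 12 weeks old, whereas Hsf1-/- mice were 10 weeks old in the HS experiment and 8 weeks old in the HSP990 experiment, so age and genotype cannot be told apart in the Hsf1-/- comparisons.

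Levels are given as CPM, a gene's share of the library's counts after scaling by the trimmed mean of M values (TMM). Libraries held 22450177 to 46599238 counts, of which collagen chains took 0.0979 to 0.267%. Hsf1 stood at 52.9 to 68.6 CPM in wild type, 45.3 to 53.7 in R6/2 and 21.1 to 29.0 in Hsf1-/- mice, so knockout mice were the lowest but not at 0. The 8 muscle fibre markers summed to 40838 to 82323 CPM in R6/2 mice and 179143 to 243283 in all other mice, and the scaling factors were 1.19 to 1.40 in R6/2 and 0.808 to 0.954 elsewhere. Counts from the Y chromosome genes Ddx3y, Uty, Eif2s3y and Kdm5d summed to 0 to 4 in wild type and R6/2 mice of the HS experiment and to 3916 to 9392 in all others. Wild type and R6/2 mice thus differed in Y-linked expression between experiments, whereas Hsf1-/- mice expressed these genes in both. Within the HS experiment, Y-linked expression and genotype cannot be told apart between Hsf1-/- and wild type mice. In whole muscle, fewer cells of a type and less RNA per cell cannot be told apart.

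Of the 40 chains, 37 passed the filter of at least 2 counts in at least 10 libraries, and each of these reached 2 counts in 21 or more libraries. The chains that did not pass were Col6a4, Col10a1 and Col25a1, with 30, 34 and 27 counts over all 24 libraries. Per kilobase of transcript, averaged over 24 mice, Col1a2 stood highest with 52.3 CPM per kb, ahead of Col4a1 with 50.2, Col3a1 with 43.0 and Col1a1 with 35.2. The type VI chains Col6a1 and Col6a2 followed Col1a1 with 27.3 and 21.9 CPM per kb, with Col4a2 between them at 23.8. Next came Col15a1, a chain of the outer basement membrane, with 13.1, and the type V chains Col5a3, Col5a2 and Col5a1 with 7.02, 6.87 and 6.62 CPM per kb. These neighbours in the order were not tested against each other. The cartilage chain Col2a1 was near the floor, at 0.0287 to 1.28 CPM. The type XI chains were higher, Col11a1 at 1.255 to 6.48 CPM and Col11a2 at 5.17 to 15.47 CPM. Among the cartilage and bone markers Acan, Bglap, Ibsp, Matn3 and Sp7 were each at 0 in some mice.

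Fibrillar chains made up 40.01 to 60.1% of all chain CPM, basement membrane chains 20.7 to 47.0% and other chains 12.2 to 24.7%. The sum over 40 chains was lowest, 727 CPM, in R6/2 control replicate 1 and highest, 2862 CPM, in wild type HSP990 replicate 2, a span of 3.94 times. The ratio between partner chains was also followed in each mouse. Collagen I is a trimer of Col1a1 and Col1a2 chains, and the ratio of Col1a1 to Col1a2 CPM was 0.599 to 0.884 in 24 mice, while Col1a1 itself ran from 60.9 to 331 CPM. Col4a1 and Col4a2, which encode the partner chains of the most widespread type IV network, had a ratio of 1.74 to 2.67. They lie head to head on chromosome 8 of mm9, Col4a1 at 11198423 to 11312826 on the minus strand and Col4a2 at 11312805 to 11449287 on the plus strand, with 22 exon bases in common, so a few reads could in principle be assigned to either. Col6a1 and Col6a2, both subunits of collagen VI, had a ratio of 1.08 to 1.91, highest in R6/2 control replicate 1. These ratios share libraries and are given as descriptions.

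Promoter sequence shows what kinds of start these genes have. For 4 chains on which the results turn, the 250 bases before the RefSeq transcription start (build GRCm38.p6, plus strand, 5′ to 3′) are printed, with capitals wherever either strand held one of the motifs searched. These were the CCAAT box, the TATA box spelled as TATAAA, the GC box spelled as GGGCGG, and paired heat shock elements spelled as GAANNTTC when head to head and as TTCNNGAA when tail to tail. Col1a2 and Col3a1 are abundant fibrillar chains, and Col4a5 and Col24a1 are chains that differed between R6/2 and wild type mice in opposite directions. They lie at chr6:4505368-4505617, chr1:45311288-45311537, chrX:141475169-141475418 and chr3:145292222-145292471.
Col1a2: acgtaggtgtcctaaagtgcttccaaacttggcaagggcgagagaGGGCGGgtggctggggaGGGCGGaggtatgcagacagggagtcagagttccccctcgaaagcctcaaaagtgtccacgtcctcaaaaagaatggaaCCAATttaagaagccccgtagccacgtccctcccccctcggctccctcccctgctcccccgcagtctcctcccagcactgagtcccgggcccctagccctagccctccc
Col3a1: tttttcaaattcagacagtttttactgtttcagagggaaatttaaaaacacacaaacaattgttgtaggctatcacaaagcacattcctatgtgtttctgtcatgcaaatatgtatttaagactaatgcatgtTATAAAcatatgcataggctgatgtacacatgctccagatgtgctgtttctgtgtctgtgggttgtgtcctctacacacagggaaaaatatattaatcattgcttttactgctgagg
Col4a5: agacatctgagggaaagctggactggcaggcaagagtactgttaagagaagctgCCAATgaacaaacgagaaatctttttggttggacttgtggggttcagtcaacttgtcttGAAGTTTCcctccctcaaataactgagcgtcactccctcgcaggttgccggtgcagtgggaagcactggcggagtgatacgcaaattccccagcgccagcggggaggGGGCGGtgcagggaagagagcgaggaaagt
Col24a1: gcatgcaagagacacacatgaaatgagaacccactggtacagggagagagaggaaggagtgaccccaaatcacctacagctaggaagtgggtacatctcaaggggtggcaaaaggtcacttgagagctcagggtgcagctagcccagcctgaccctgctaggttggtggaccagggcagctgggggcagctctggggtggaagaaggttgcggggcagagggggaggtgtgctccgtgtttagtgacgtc

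Col1a2 had 1 CCAAT box 109 to 105 bases before the start and 2 GC boxes (GGGCGG), Col3a1 had a TATAAA but no GC box in this window, Col4a5 held a CCAAT box, a GC box and 1 GAANNTTC match, and Col24a1 held none of these motifs. Of the 40 chains, 32 had an entry in the RefSeq promoter table. A CCAAT box was in 40.6% of these 32 chains and in 33.8% of all 32851 promoters, a TATAAA in 15.6% and 12.4%, and a GGGCGG in 62.5% and 32.7%. The inverted pairs of elements bound by heat shock factors, head to head as GAANNTTC and tail to tail as TTCNNGAA, were each in 1 of the 32 chains, Col4a5 and Col17a1, and in 6.69 and 7.17% of all promoters. The longer heat shock element with 3 units, which holds both of the shorter pairs, was in none of these windows and in 0.466% of all promoters. A match or its absence in these windows is a description of the letters only.

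The comparison of R6/2 with wild type mice that had received neither HS nor HSP990 (control and vehicle mice, 4 against 4) asks how the disease model differs at baseline, and it was the one in which chains passed the test. Between these mice 7 of 37 chains tested were called at an adjusted p below 0.05, against 30.5% of all 13754 genes. Of them, 5 were higher in R6/2, Col4a5, Col6a6, Col7a1, Col19a1 and Col23a1, where 15.1% of all genes were higher and called. The other 2, Col12a1 and Col24a1, were lower, where 15.4% of all genes were lower and called. The chains' share of calls was thus below that of all genes, and the median log2 difference over the 37 chains was -0.02, beside 0.05 for all genes. None of the 9 chains of highest level in their classes was called apart from Col12a1.

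Col24a1, a minor fibrillar chain, had the largest difference. It stood at 30.2 and 33.7 CPM in wild type control mice and at 22.4 and 22.4 CPM in wild type vehicle mice. In R6/2 it stood at 3.37 and 8.28 CPM in control and 4.89 and 6.89 CPM in vehicle mice. All 4 R6/2 mice lay well below all 4 wild type mice, with a log2 difference of -2.19 (SE 0.48, edgeR adjusted p = 0.00253), and the call held when any 1 of the 8 mice was left out. Within the experiments the log2 difference was -2.46 in control mice (adjusted p = 0.0275) and -1.93 in vehicle mice (adjusted p = 0.0573).

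Col12a1, a fibril-associated chain that sits on the surface of collagen I fibrils, was 19.4 and 24.0 CPM in wild type control, 11.01 and 20.4 in wild type vehicle, 9.60 and 12.2 in R6/2 control and 10.6 and 9.40 in R6/2 vehicle mice. Wild type vehicle replicate 1 lay among the R6/2 mice. The log2 difference was -0.82 (SE 0.25, adjusted p = 0.0175), and the call was lost when any 1 of 4 mice was left out (wild type control 2, wild type vehicle 2, R6/2 control 1 or R6/2 vehicle 2), with adjusted p up to 0.116. With library sizes alone as the scale, Col12a1 had a log2 difference of -0.22 and was not called.

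**Figure D1:**
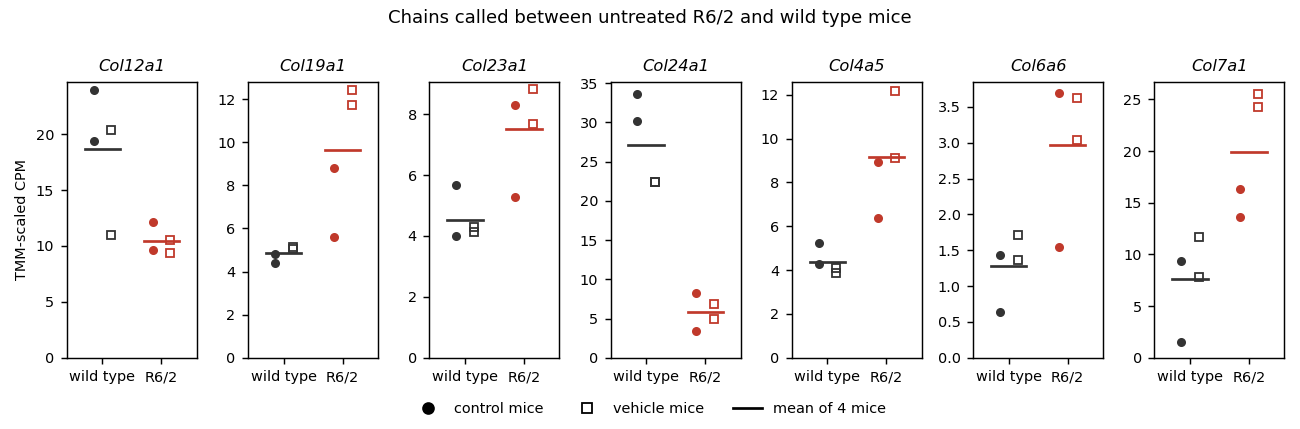
TMM-scaled CPM (vertical axes, from 0, a separate scale per gene) of the 7 chains called between untreated R6/2 and wild type mice; filled circles are control mice, open squares vehicle mice and lines the mean of 4 mice. Col24a1 lies at 3.37 to 8.28 CPM in R6/2 and 22.4 to 33.7 CPM in wild type, whereas 1 wild type mouse overlaps the R6/2 range for Col12a1.

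Col4a5, the chain that joins Col4a3 and Col4a4 in kidney and, with itself and Col4a6, forms networks elsewhere, was 5.22 and 4.29 CPM in wild type control, 3.85 and 4.07 in wild type vehicle, 6.37 and 8.94 in R6/2 control and 12.2 and 9.11 in R6/2 vehicle mice. Every R6/2 mouse was above every wild type mouse, with a log2 difference of 1.06 (SE 0.23, adjusted p = 0.00206), called without any 1 of the 8 mice. In vehicle mice alone the log2 difference was 1.43 (adjusted p = 0.00543) and in control mice 0.69 (adjusted p = 0.179). Col4a6, its neighbour on the X chromosome on the opposite strand, ran at 0.414 to 1.17 CPM in wild type and 1.26 to 2.61 CPM in R6/2 mice, again without overlap, but its log2 difference of 1.51 (SE 0.58) did not pass (adjusted p = 0.0596).

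Col19a1, a fibril-associated chain known from basement membrane zones, was 4.81 and 4.404 CPM in wild type control and 5.13 and 5.04 in wild type vehicle mice, against 8.81 and 5.62 in R6/2 control and 11.7 and 12.4 in R6/2 vehicle mice. The groups did not overlap, and the log2 difference of 0.95 (SE 0.22, adjusted p = 0.00373) was called without any 1 of the 8 mice. Col23a1, a transmembrane chain, was 4.00 and 5.67 CPM in wild type control, 4.14 and 4.30 in wild type vehicle, 8.30 and 5.27 in R6/2 control and 8.82 and 7.68 in R6/2 vehicle mice. R6/2 control replicate 2 lay within the wild type range, and the log2 difference of 0.73 (SE 0.19, adjusted p = 0.00756) did not keep its call, at 0.0551 for the adjusted p, once R6/2 control replicate 1 was left out.

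The remaining called chains rested on lower or more scattered values. Col6a6, an alternative chain of collagen VI, was 1.44 and 0.635 CPM in wild type control, 1.37 and 1.71 in wild type vehicle, 1.54 and 3.70 in R6/2 control and 3.04 and 3.62 in R6/2 vehicle mice, a log2 difference of 1.23 (SE 0.33, adjusted p = 0.00994). It was lost without wild type control 2 or R6/2 control 2, with adjusted p up to 0.0636. Col7a1, the chain of anchoring fibrils, was 1.53 and 9.41 CPM in wild type control, 7.82 and 11.7 in wild type vehicle, 13.6 and 16.3 in R6/2 control and 24.3 and 25.5 in R6/2 vehicle mice. The groups did not overlap, but wild type control replicate 1 lay far below the other wild type mice, and the log2 difference of 1.39 (SE 0.51, adjusted p = 0.0489) stayed called in only 1 of 8 fits that left out a mouse, with adjusted p up to 0.161. Both experiments gave all 7 chains the same sign, but the chains were called on the mean of both experiments, so this is no separate support. Taken alone, 2 chains were called in control mice (Col24a1 and Col5a3, a type V chain) and 4 in vehicle mice (Col4a5, Col19a1, Col23a1 and Col11a2, a type XI chain), beside 1711 and 2638 of all 13754 genes.

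The count of calls in this comparison changed with the scale. Without TMM scaling the median of all genes moved from 0.05 to 0.66 on the log2 scale and the chains' median from -0.02 to 0.58. The number of chains called then rose from 7 to 17, of which 16 were higher in R6/2 and 1, Col24a1, was lower, in place of 5 and 2. All genes called rose from 4194 to 8876 of 13754, a larger share than that of the chains on either scale. Col4a5, Col6a6, Col7a1, Col19a1, Col23a1 and Col24a1 were called in the same direction on both scales. DESeq2 called 10 chains, the 7 and Col4a6, Col5a3 and Col8a1, beside 4486 of 13754 genes.

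Several abundant chains differed widely between the 2 mice of an R6/2 group. Col1a1 was 60.9 and 232 CPM in R6/2 control, 316 and 134 after HS, 128 and 147 in vehicle and 270 and 133 after HSP990. In each of the groups other than vehicle the higher mouse had 232 CPM or more and the lower mouse had less than any untreated wild type mouse. Col3a1 was 89.3 and 279 CPM in R6/2 control mice, and Col15a1 was 18.4 and 60.6 CPM, with replicate 1 low for both. Col4a1 was 103 and 156 CPM in R6/2 control mice, below the 244 and 266 CPM of wild type control mice, and Col4a2 was 56.2 and 71.7 CPM, below 121 and 121 CPM (log2 differences in control mice of -0.97 and -0.92, adjusted p = 0.106 and 0.0825). Vehicle mice of the 2 genotypes overlapped for both chains. Without R6/2 control replicate 2 the chains' median log2 difference between untreated R6/2 and wild type mice was -0.36, beside 0.04 for all genes. Without R6/2 vehicle replicate 2 it was -0.14, beside 0.03 for all genes. R6/2 control replicate 1 was the lowest of 24 mice in the summed level of each class, at 343 CPM for fibrillar, 204 for basement membrane and 179 for other chains. Its fibroblast markers were not low, summing to 2102 CPM, with only 2 mice higher. The 8 muscle fibre markers summed to 40838 CPM in it, the lowest of all mice. The part of such differences in the chains' levels was not tested.

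**Figure D2:**
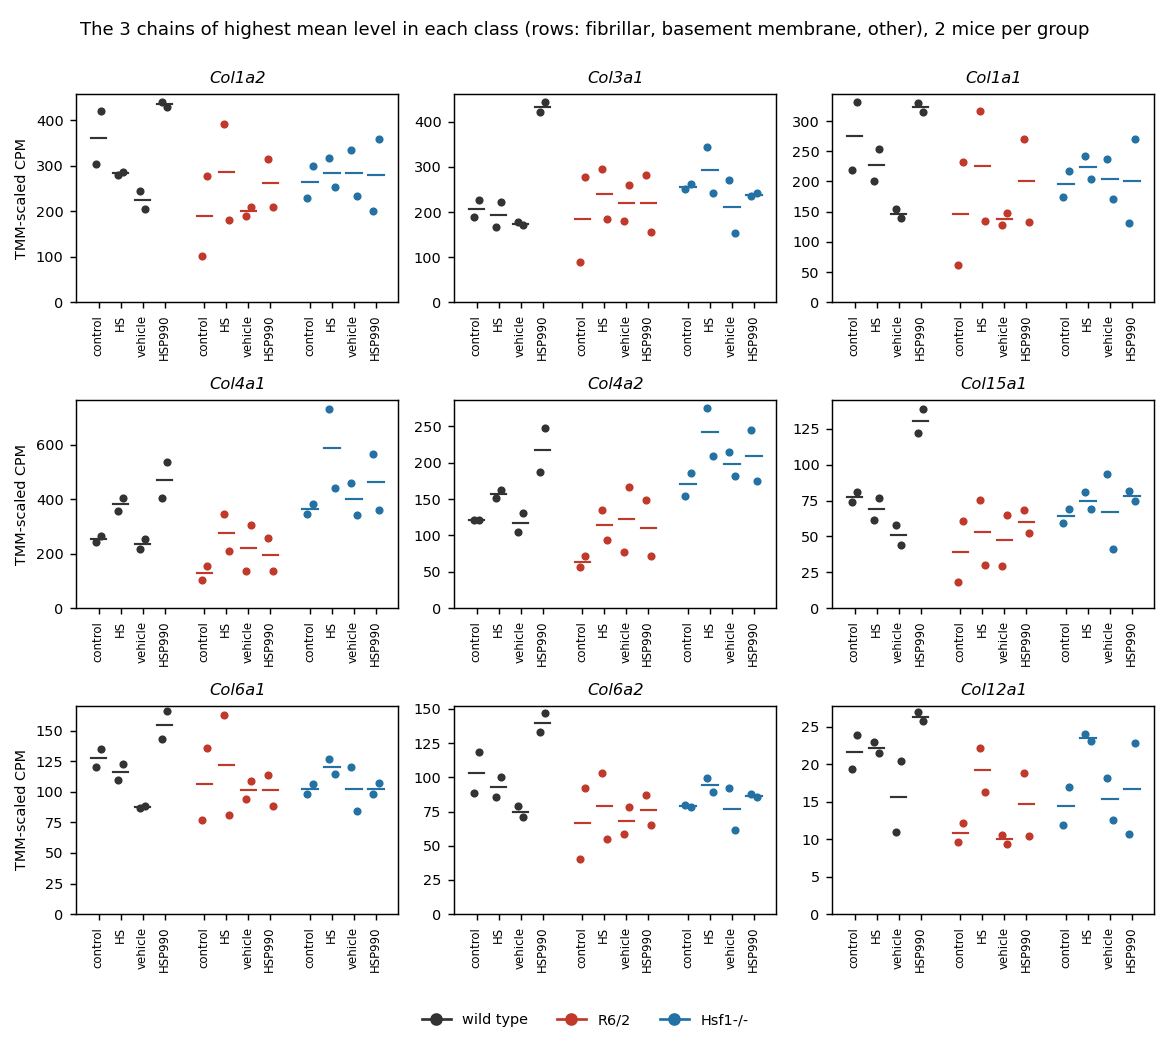
TMM-scaled CPM (vertical axes, from 0) of the 3 chains with the highest mean level in each class in all 12 groups; points are mice, lines are means of 2 mice, and colours are genotypes. Both wild type HSP990 mice stand above both wild type vehicle mice in every panel, while R6/2 groups often hold 1 high and 1 low mouse.

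Of the 6 treatment comparisons, HSP990 in wild type mice had the most chains on 1 side of 0, although no single chain passed the test in the 24 libraries. Of 37 chains, 35 had a log2 fold change above 0, all 11 fibrillar, 7 of 8 basement membrane and 17 of 18 other chains, where 49.7% of all genes did. The median log2 fold change was 0.76 over the chains, 0.78 over fibrillar, 0.66 over basement membrane and 0.79 over other chains, and 0.00 over all genes. In 25 of 37 chains both HSP990 mice stood above both vehicle mice, which held for 24.3% of all genes. An unadjusted p below 0.05 with a rise was reached by 16 chains and by 8.7% of all genes. After adjustment edgeR called 0 chains and 1.85% of all genes, and the smallest adjusted p among chains was 0.0882 for Col5a2. DESeq2 called Col5a2 alone of the chains, beside 547 of 13754 genes. The chains share mice and cells of origin, so their agreement in direction is not a set of independent results.

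Col3a1, the chain of reticular fibres, was 178 and 171 CPM in vehicle and 421 and 444 CPM in HSP990 mice, a log2 fold change of 1.31 (SE 0.41, edgeR adjusted p = 0.127). Col1a1 was 154 and 139 CPM in vehicle and 330 and 315 after HSP990 (log2 1.14, SE 0.50, adjusted p = 0.334). Col1a2 was 245 and 205 CPM against 441 and 429 (log2 0.95, SE 0.40, adjusted p = 0.31). In all of these the pairs of mice lay close together and apart from the other pair. The type V chain Col5a2, which helps to start collagen I fibrils, was 36.3 and 36.8 CPM in vehicle and 67.6 and 58.3 in HSP990 mice, a log2 fold change of 0.78 (SE 0.22).

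Basement membrane and collagen VI chains had the same order. Col4a1 was 219 and 256 CPM in vehicle and 406 and 537 in HSP990 mice (log2 0.99, SE 0.38, adjusted p = 0.245). Col4a2 was 104 and 131 CPM against 188 and 248 (log2 0.89, SE 0.33, adjusted p = 0.232). Col15a1 was 58.3 and 44.3 CPM against 122 and 139 (log2 1.35, SE 0.50, adjusted p = 0.218), with no overlap for any of these chains. Col6a1 was 86.8 and 88.1 CPM against 144 and 166 (log2 0.82, SE 0.27, adjusted p = 0.162), and Col6a2 was 78.9 and 70.9 CPM against 133 and 147 (log2 0.90, SE 0.32, adjusted p = 0.203). Col12a1 was 11.01 and 20.4 CPM against 26.9 and 25.8 (log2 0.75, SE 0.35, adjusted p = 0.367). The 2 chains without a rise were Col4a3 and Col13a1, with log2 fold changes of -0.22 and -0.71.

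Fits of 4 and of 16 of the libraries called more chains. With only the 4 libraries compared, 8 chains were called, all higher after HSP990, Col1a1, Col1a2, Col3a1, Col5a1, Col5a2, Col6a1, Col6a2 and Col15a1, beside 0.984% of all genes that were higher and called. With the 16 wild type and Hsf1-/- libraries, a choice made after the spread of the R6/2 pairs had been seen, 7 chains were called, Col3a1, Col4a2, Col5a1, Col5a2, Col6a1, Col6a2 and Col15a1, beside 1.97% of all genes that were higher and called. An exact permutation test of 2 against 2 mice for a single chain cannot give a p below 0.333.

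**Figure D3:**
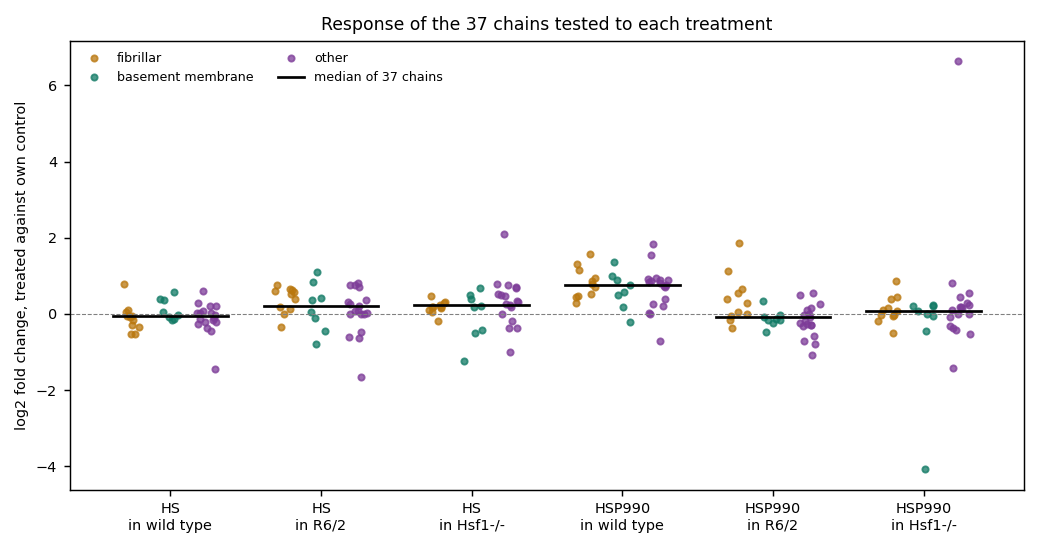
Log2 fold change (vertical axis) of the 37 chains tested in each of 6 treatment comparisons, coloured by class with random sideways offsets, and black lines for the median of 37 chains. The median is 0.76 for HSP990 in wild type and lies between -0.07 and 0.24 in the other 5; 2 chains of very low counts, Col4a6 and Col9a1, set the extremes in Hsf1-/- mice after HSP990.

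The levels were also set beside those of the HS experiment, with no test across experiments. The wild type control mice of the HS experiment had 220 and 331 CPM of Col1a1 and 304 and 420 CPM of Col1a2, more than the vehicle mice and, in replicate 2, about as much as the HSP990 mice. Summed over fibrillar chains, wild type mice had 898 and 1183 CPM in control, 816 and 967 after HS, 737 and 682 in vehicle and 1439 and 1480 after HSP990. The HSP990 mice had the highest fibrillar sums of all 24 mice. Y-linked counts also set these control mice apart from the vehicle and HSP990 mice, and the part of that difference was not tested.

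Markers of the cells that make collagen were followed beside the chains. The 12 fibroblast markers summed to 1395 and 1571 CPM in wild type vehicle and 1474 and 1630 CPM in HSP990 mice, overlapping ranges, with 10 of 12 above 0 on the log2 scale, a median of 0.36 and none called. The summed CPM of Col1a1, Col1a2 and Col3a1 per CPM of these markers was 0.413 and 0.328 in vehicle and 0.809 and 0.729 in HSP990 mice. Endothelial markers summed to 462 and 382 CPM in vehicle and 567 and 653 in HSP990 mice, smooth muscle and pericyte markers to 377 and 383 against 492 and 453, and macrophage markers to 50.1 and 53.5 against 65.3 and 105. These 3 sums did not overlap. The part of these and of the following sums in the chains' levels was not tested. Of the members of these 3 lists only the macrophage marker Mrc1 was called, with a log2 fold change of 1.25 (adjusted p = 0.0385). Tendon markers summed to 273 and 343 CPM against 417 and 360, and Schwann cell markers to 121 and 135 against 151 and 165, both also without overlap. Adipocyte markers, at 87.2 and 253 against 71.2 and 333, overlapped. Satellite cell markers summed to 20.94 and 20.32 against 20.26 and 17.99 CPM, with both HSP990 mice lower. Cartilage and bone markers summed to 3.64 and 3.14 against 10.9 and 11.5 CPM, again without overlap. Among them, Sox9 was called, from 3.35 and 3.10 CPM to 10.7 and 10.9 CPM, with the defining genes Acan and Bglap at or near 0.

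**Figure D4:**
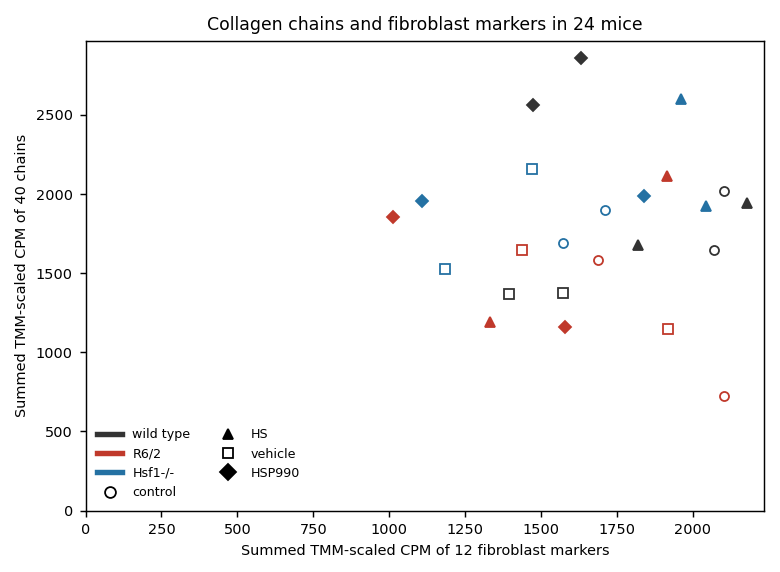
Summed TMM-scaled CPM of the 40 chains (vertical axis) against that of 12 fibroblast markers (horizontal axis) in 24 mice, with colours for genotypes and symbols for treatments. The 2 wild type HSP990 mice have 2566 and 2862 CPM of chains at 1474 and 1630 CPM of markers, and R6/2 control replicate 1 has 727 CPM at 2102.

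In R6/2 and Hsf1-/- mice HSP990 gave medians near 0. In R6/2 mice edgeR called 0 of 37 chains, beside 1.43% of all genes, with 0 by DESeq2 and a median log2 fold change of -0.07. Col24a1, low in untreated R6/2 mice, was 33.7 CPM in HSP990 replicate 1 and 9.18 in replicate 2, against 4.89 and 6.89 in vehicle mice (log2 1.86, SE 0.68, adjusted p = 0.293). In Hsf1-/- mice 0 chains were called, beside 0.218% of all genes, with 0 by DESeq2 and a median of 0.09. Col1a1 was 238 and 172 CPM in Hsf1-/- vehicle and 130 and 270 CPM in HSP990 mice, and Col3a1 was 271 and 153 against 235 and 242, so both overlapped. Leaving out Hsf1-/- vehicle replicate 2 called 1 chain, Col4a6, which had 0 counts in that mouse.

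The difference between the responses themselves was tested as an interaction. The HSP990 response in R6/2 minus that in wild type had a median log2 difference of -0.75 over chains, with 34 of 37 below 0. The median over all genes was -0.001. EdgeR called 0 chains and 0% of all genes, and DESeq2 called 0 chains. For Hsf1-/- minus wild type the chains' median was -0.73, with 31 of 37 below 0, beside a median of 0.002 over all genes. EdgeR called 0 chains and 0.422% of all genes, and DESeq2 called 0 chains. The chains' median was -0.41 without Hsf1-/- vehicle replicate 1 and -0.91 without Hsf1-/- vehicle replicate 2. Both differences use the same wild type mice. Col3a1 had a difference of -1.32 (SE 0.57, adjusted p = 0.665) in R6/2 and -1.14 (SE 0.57, adjusted p = 0.752) in Hsf1-/- mice. The chains' responses are therefore not shown to differ between genotypes.

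After HS in wild type mice edgeR called 0 of 37 chains and 2.06% of all genes, with 0 chains at an unadjusted p below 0.05 and 0 by DESeq2, and the median log2 fold change was -0.06. Among type IV chains, Col4a1, Col4a2 and Col4a4 had both HS mice above both control mice without passing the test, while Col4a3, Col4a5 and Col4a6 overlapped. Such an order of 2 against 2 mice held for 24.3% of all genes after HSP990 in wild type mice. The share of all genes after HS was not counted. Col4a1 was 244 and 266 CPM in control and 358 and 407 CPM in HS mice (log2 0.59, SE 0.38, adjusted p = 0.619), and Col4a2 was 121 and 121 against 151 and 162 (log2 0.37, SE 0.33, adjusted p = 0.754). Neither pair overlapped, and Col4a1 was called when only the 4 libraries compared were fitted, beside 598 of 13722 genes. In R6/2 mice Col4a1 was 103 and 156 CPM in control and 345 and 210 after HS (log2 1.10, SE 0.38, adjusted p = 0.386), and in Hsf1-/- mice it was 345 and 384 against 734 and 440 (log2 0.69, SE 0.38, adjusted p = 0.667). For Col4a1 the HS mice were thus above their controls in every genotype, with no call in any.

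In R6/2 mice HS gave 0 called chains beside 0.0436% of all genes, 4 chains and 1117 of all 13754 genes at an unadjusted p below 0.05, 0 chains by DESeq2 and a median of 0.20. The median had no stable sign, at -0.13 without R6/2 control replicate 1, -0.12 without R6/2 HS replicate 1, 0.54 without R6/2 control replicate 2 and 0.42 without R6/2 HS replicate 2. In Hsf1-/- mice it gave 0 called chains beside 0.00727% of all genes, 0 at an unadjusted p below 0.05, 0 by DESeq2 and a median of 0.24. Between R6/2 and wild type mice the response to HS differed for 0 chains and 0.0727% of all genes, and between Hsf1-/- and wild type mice for 0 chains and 0.16% of all genes, with 0 chains at an unadjusted p below 0.05 and 0 by DESeq2 in both.

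The HS and HSP990 responses were also set against each other within a genotype. In wild type mice the HS response was below the HSP990 response for 33 of 37 chains, with a median log2 difference of -0.74 beside -0.02 for all genes. EdgeR called 0 chains and 2.38% of all genes, and DESeq2 called 0 chains. A fit of only the 8 libraries compared called 8 chains, Col1a1, Col1a2, Col3a1, Col5a1, Col5a2, Col6a1, Col6a2 and Col15a1, beside 596 of 13753 genes. Col1a2 had a difference of -1.30 (SE 0.57, adjusted p = 0.286) and Col15a1 of -1.52 (SE 0.69, adjusted p = 0.316), but Col4a1 of only -0.40 (SE 0.53, adjusted p = 0.784). In R6/2 mice 0 chains and 1.63% of all genes were called, with a median of 0.20 and 0 chains by DESeq2. In Hsf1-/- mice 0 chains and 0.145% of all genes were called, with a median of 0.13 and 0 chains by DESeq2.

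Untreated Hsf1-/- mice were also compared with untreated wild type mice, with 0 chains and 0.974% of all genes called by edgeR. DESeq2 called 1 chain, Col19a1, beside 371 of 13754 genes. Col19a1 was 6.45 and 9.45 CPM in Hsf1-/- control and 8.38 and 10.5 in Hsf1-/- vehicle mice, all above the 4.404 to 5.13 CPM of wild type mice, with a log2 difference of 0.84 (SE 0.22, adjusted p = 0.0914). Col4a1 was 345 and 384 CPM in Hsf1-/- control and 459 and 344 in vehicle mice, above the 219 to 266 CPM of untreated wild type mice (log2 0.64, SE 0.27, adjusted p = 0.287). Col4a2 gave the same order (log2 0.62, SE 0.24, adjusted p = 0.237). The smallest difference of Col4a1 within an experiment was 0.52 in control mice, where the genotypes also differed in Y-linked expression. A fit of only the libraries compared called Col4a1 and Col4a2, beside 126 of 13751 genes.

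The genes that fold, hydroxylate, secrete, cleave, crosslink, break down or bind collagen were followed as a list of 68, of which 65 were tested. In the fit of all 24 libraries several of them were called after treatment, unlike the chains. HSP990 in wild type mice called 7 of 65, of which 6 rose and 1 fell, with 5 of the 19 folding and modification genes among those that rose, beside 1.85% of all genes called. HS in wild type mice called 6, all higher, beside 2.06% of all genes called.

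Serpinh1, the collagen chaperone HSP47, was 112 and 123 CPM in wild type control and 382 and 457 CPM after HS (log2 1.83, SE 0.27, adjusted p = 0.00147, lost without control replicate 1 with adjusted p = 0.056). It was 87.3 and 70.9 CPM in vehicle and 599 and 581 CPM after HSP990, the largest rise of the list (log2 2.90, SE 0.28, adjusted p = 9.67e-06). With R6/2 mice it went from 78.0 and 64.9 CPM to 273 and 270 (log2 1.93, SE 0.27, adjusted p = 0.00105). In Hsf1-/- mice it was 86.6 and 60.9 CPM in vehicle and 107 and 87.6 after HSP990, without a call.

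P4ha1, a catalytic subunit of prolyl 4-hydroxylase, was 34.5 and 40.1 CPM in wild type control, 69.9 and 66.9 after HS, 30.4 and 29.5 in vehicle and 115 and 105 after HSP990. It was called in both treatments, with log2 fold changes of 0.87 (adjusted p = 0.00555, lost without control replicate 1) and 1.87 (adjusted p = 1.71e-06). HSP990 took it in R6/2 mice from 38.6 and 34.7 to 88.4 and 91.9 CPM (log2 1.30, adjusted p = 0.000172). Plod1, a lysyl hydroxylase, was 32.7 and 26.95 CPM in wild type vehicle and 84.0 and 70.8 after HSP990 (log2 1.38, adjusted p = 0.000639). These genes rose in wild type mice after HSP990 while their substrates, the chains, had higher values without passing the test in the 24 libraries.

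**Figure D5:**
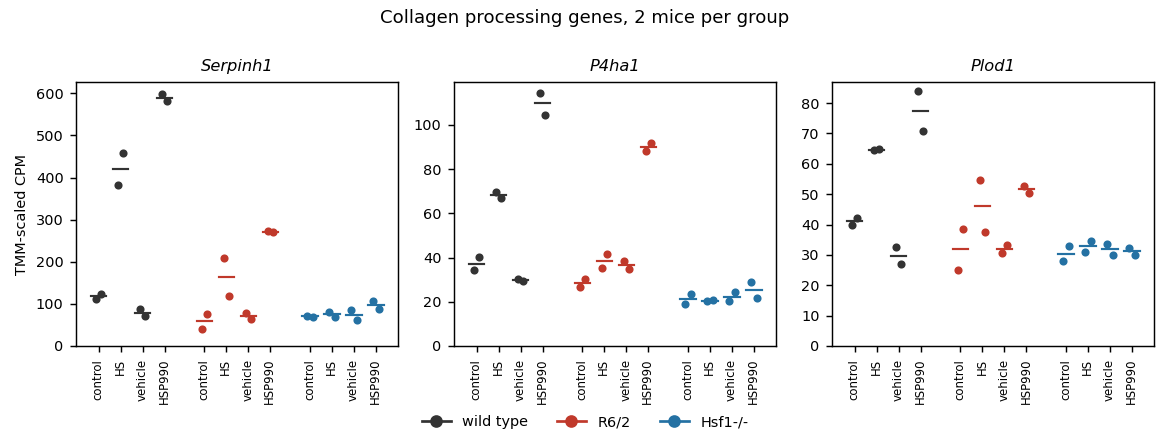
TMM-scaled CPM (vertical axes, from 0) of Serpinh1, P4ha1 and Plod1 in all 12 groups; points are mice and lines are means of 2 mice. In Hsf1-/- mice Serpinh1 stays between 60.9 and 107 CPM in all 8 mice, against 70.9 to 599 CPM in wild type.

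Timp4, an inhibitor of matrix metalloproteinases, fell after HSP990 in each genotype. It was 52.1 and 55.9 CPM in wild type vehicle and 7.09 and 11.2 after HSP990 (log2 -2.55, adjusted p = 0.000332), and the log2 fold change was -2.28 in R6/2 (adjusted p = 0.00133) and -2.25 in Hsf1-/- mice (adjusted p = 0.00447, lost without Hsf1-/- HSP990 replicate 1 with adjusted p = 0.119). With only the libraries compared, Timp4 was called in wild type mice but not in R6/2 or Hsf1-/- mice, and the R6/2 calls of P4ha1 and Tgm2 after HSP990 were lost as well. Tgfb2, a growth factor of the TGF-beta family, rose by 0.97 on the log2 scale after HSP990 in wild type mice (adjusted p = 0.00138, lost without vehicle replicate 2 with adjusted p = 0.0625). Pdia3 and P4ha2 were also called, with adjusted p of 0.0351 and 0.0411, but neither held without any 1 of the 4 mice. With only the libraries compared, none of Tgfb2, Pdia3 and P4ha2 was called after HSP990 in wild type mice. Tgm2, a crosslinking transglutaminase, rose after HS in wild type mice (log2 1.12, adjusted p = 0.00128) and fell after HSP990 in R6/2 mice (log2 -1.11, adjusted p = 0.0014). Timp3 and P4ha2 were called after HS in wild type mice with adjusted p of 0.0332 and 0.00872, of which Timp3 was lost without any 1 of the 4 mice and P4ha2 without control replicate 1 or HS replicate 2.

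Between untreated R6/2 and wild type mice 15 of the 65 were called, 10 higher and 5 lower, beside 30.5% of all genes called. By size the first were Adamts3, a procollagen N-proteinase, with a log2 difference of -1.34, Itga1, the alpha subunit of a collagen-binding integrin, with -1.28, Lox, the lysyl oxidase that crosslinks fibrils, with 1.09, Furin, a proprotein convertase, with 0.97, and Smad3, a transducer of TGF-beta signals, with -0.96, at adjusted p of 0.0167, 0.000356, 0.00017, 1.54e-05 and 0.00299. Adamts3 was lost without wild type vehicle replicate 1 or R6/2 control replicate 1, with adjusted p up to 0.0633. Lox was 18.9 and 18.8 CPM in wild type control, 15.9 and 19.8 in wild type vehicle, 31.1 and 22.1 in R6/2 control and 53.4 and 60.5 in R6/2 vehicle mice, without overlap. Lox, Itga1, Furin and Smad3 were called without any 1 of the 8 mice. Adamts3 and Smad3 were not called with library sizes alone as the scale. Between untreated Hsf1-/- and wild type mice P4ha1 alone was called (log2 -0.61, adjusted p = 0.0124, lost in 4 of the 8 fits that left out a mouse). HS in R6/2 and in Hsf1-/- mice called 0 of the 65. The HS response was above the HSP990 response in wild type mice for Timp4 and Tgm2 (log2 differences of 2.50 and 1.61, adjusted p = 0.00659 and 0.00216) and below it for P4ha1 and Tgfb2 (-0.999 and -0.88, adjusted p = 0.0194 and 0.0323, each lost in 5 or more of 8 fits that left out a mouse). In R6/2 mice it was above the HSP990 response for Adamts14, a procollagen N-proteinase, Timp4, Tgm2 and Lox (2.85, 1.89, 1.65 and 1.42), of which Tgm2 alone was called without any 1 of the 8 mice and none when only the libraries compared were fitted.

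In these untreated R6/2 mice 7 of 8 muscle fibre markers were lower and called, with a median log2 difference of -1.81, beside 15.1% of all genes called higher and 15.4% called lower. Adipocyte markers had a median of -1.83 with 3 of 6 called lower, satellite cell markers 0.63 with 2 of 4 called higher, and macrophage markers 0.36 with 2 of 8 called higher. Fibroblast markers had a median of 0.05 with 1 of 12, Pdgfra, called higher, tendon markers -0.54 with 1 of 8, Scx, called higher, and endothelial markers -0.08 with 0 of 8 called. Their part in the chains' differences was not tested.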

How the data were processed

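Polyadenylated RNA from quadriceps femoris was sequenced by the authors as strand-specific paired-end reads and aligned with Bowtie to mm9. The deposited table holds raw read counts per Entrez gene for 24 libraries, and the counting program and annotation are not given in the sources used here. A symbol was matched to 18594 of 18669 gene ids. The 13754 genes that reached 2 counts in 10 or more libraries were fitted in 1 model of 12 groups with edgeR 4.0.16 (quasi-likelihood test, TMM scaling, 12 residual degrees of freedom; limma 3.58.1, R 4.3.3), with Benjamini-Hochberg adjustment over all genes and a threshold of 0.05. DESeq2 1.42.0 was an alternative, beside other scalings, no filter, fewer libraries, a replicate block and leaving out each mouse. Nothing in the labels says more than that replicates are separate mice. The scripts were tested on simulated data.

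Named were chains called in any comparison, the 3 chains of highest mean CPM in each class, and up to 5 called members of the processing list per comparison by size. Members named beyond these, such as Col5a2, Col4a6 and the chains called under alternatives, were chosen after their values were seen. The members and lists were chosen with earlier results of these data known. A search of the 40 chain transcripts found 0 with a near-identical copy elsewhere in the genome. Promoters came from RefSeq (GRCm38.p6) and gene coordinates are those of mm9. The values of 1 called member of the processing list are not reported here, although it is included in that list's counts.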

Additional observations from a re-analysis of the deposited data

Results flagged for a closer look

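The response to HSP990 was compared between Hsf1-/- and wild type mice by the interaction term of the edgeR fit. It differed for 3 genes of the collagen processing list, for 0 of 37 chains and for 58 of all 13754 genes (0.422%). At that share of all genes, 0 calls in 37 chains do not set the chains apart. Serpinh1 had a difference of -2.5 on the log2 scale (SE 0.38, adjusted p = 0.00317), with 86.6 and 60.9 CPM in Hsf1-/- vehicle and 107 and 87.6 CPM in HSP990 mice, and was called in all 8 fits that left out a mouse. P4ha1 had a difference of -1.69 (SE 0.22, adjusted p = 0.000493), with 20.2 and 24.3 CPM in Hsf1-/- vehicle and 29.1 and 21.5 CPM in HSP990 mice, and was also called in all 8 such fits, but not when only the libraries compared were fitted. Plod1 had a difference of -1.41 (SE 0.27, adjusted p = 0.0219), with 33.7 and 30.0 CPM in vehicle and 32.2 and 30.1 CPM in HSP990 mice. Plod1 was called in 2 of the 8 fits that left out a mouse (adjusted p up to 0.18) and not with library sizes alone or with only the libraries compared. Hsf1-/- mice were 8 weeks old in this experiment and wild type mice 12 weeks old, so age and genotype cannot be told apart.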

How the results depend on the processing

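Of the counts of chains called, 90 alternatives gave a count within 1.5 times the reported one and 13 did not, apart from fits that left out a mouse. With only the libraries compared, 1 chain was called for HS in wild type, 8 for HSP990 in wild type, 2 for untreated Hsf1-/- against wild type and 8 for the HS minus HSP990 response in wild type. The 16 wild type and Hsf1-/- libraries, chosen after seeing the data, gave 7, 1 and 3 for the last 3 of these. Of all 13754 genes these fits called 370, 289 and 505. For HSP990 in wild type, library sizes alone and DESeq2 each gave 1, and DESeq2 gave 1 for untreated Hsf1-/-. For untreated R6/2 against wild type, library sizes alone gave 17, control mice alone 2 and vehicle mice alone 4. The cause was not tested. Leaving out a mouse gave 4 to 11 chains there, lowest without R6/2 control replicate 1 and highest without R6/2 control replicate 2. The number of all genes called was also lowest and highest in these same fits, so the swing was not confined to the chains. For HSP990 in Hsf1-/- and for its difference from wild type, leaving out Hsf1-/- vehicle replicate 2 changed the number of chains called. With library sizes alone, P4hb and Serpinh1 in untreated R6/2 mice turned from -0.45 and -0.58 to 0.15 and 0.026, and the chains' median moved to 0.58 there and from 0.13 to -0.06 for the HS minus HSP990 response in Hsf1-/-. Leaving out a mouse of the groups compared also turned the sign of the chains' median for HSP990 in R6/2 (-0.23 to 0.14) and in Hsf1-/- (-0.19 to 0.35) and for the HS minus HSP990 response in R6/2 (-0.21 to 0.67) and in Hsf1-/- (-0.15 to 0.38). The replicate block gave 7 chains for untreated R6/2 and 0 in all other comparisons. Same-numbered mice had correlations of deviations from -0.197 to 0.239 over 6 treatment comparisons, within the -0.333 to 0.346 over all 66 group pairs. This check cannot show that same-numbered mice share nothing but a number, and the labels name nothing else. Each group had only 2 mice, and chains of few counts, such as Col4a6, rest on values near 0.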
